A study of Mus musculus with 6 samples.

Results

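MicroRNAs (miRNAs) of the normal mouse lung were profiled on 4 arrays, each hybridised with RNA from the left upper lung lobe of wildtype (WT) mice. The profile comprised the 609 probe sets named for mouse miRNAs among the 7625 probe sets of the array. They were chosen by name alone and ranked by mean signal, which was taken to be on a log2 scale from its range. Detection required a signal over the limit of the given array, set at the 95th percentile of its 1341 plant miRNA probe sets. The whole series held 6 arrays, and the 2 from CC10-rtTA-IL13 transgenic mice were not used. The WT animals were C57BL/6 mice aged 6 to 10 weeks whose drinking water contained doxycycline at 2 mg/mL for 7 days, so the profile is that of lung from doxycycline-treated animals. The labels describe the samples as biological replicates and do not say whether animals were pooled. No group without doxycycline was analysed here.

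A miRNA is a short RNA that guides an Argonaute protein to partly complementary messenger RNAs and lowers their translation and stability. Bases 2 to 8 of the miRNA, the seed, contribute most to target choice, so miRNAs with the same seed are grouped as a family. Each hairpin precursor yields a pair of strands, of which usually only 1 accumulates, and the minor strand is called the star strand. In the lung, miR-126 is known from endothelium, miR-143 and miR-145 from smooth muscle, the miR-200 family from epithelium, and let-7 and miR-30 members from many differentiated cell types. In RNA from whole tissue, fewer cells of a type and less RNA per cell cannot be told apart.

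The sequences of the miRNAs that led the ranking are shown because members of 1 family differed widely in signal while differing by few bases. RefSeq (GRCm38.p6) gave a mature sequence for 75 of the 92 probe sets detected on all 4 arrays. They are written 5′ to 3′ with the seed in capitals, first the 8 detected let-7 members in the order of their mean signal.
let-7b: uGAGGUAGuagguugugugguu
let-7c: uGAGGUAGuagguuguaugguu
let-7d: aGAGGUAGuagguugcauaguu
let-7a: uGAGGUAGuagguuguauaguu
let-7e: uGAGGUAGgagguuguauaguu
let-7i: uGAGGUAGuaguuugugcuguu
let-7f: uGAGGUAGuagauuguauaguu
let-7g: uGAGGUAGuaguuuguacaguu
The next sequences are the other leading miRNAs, chosen from the top of the ranking for their known cell types or shared seeds.
miR-24: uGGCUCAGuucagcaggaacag
miR-26a: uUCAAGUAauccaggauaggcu
miR-126-3p: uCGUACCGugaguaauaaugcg
miR-125b-5p: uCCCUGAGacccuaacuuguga
miR-23a: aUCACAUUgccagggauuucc
miR-103: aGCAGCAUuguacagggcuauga
miR-107: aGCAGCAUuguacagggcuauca
miR-200c: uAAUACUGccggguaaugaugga
miR-16: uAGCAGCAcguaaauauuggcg
miR-30a: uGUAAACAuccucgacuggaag
Their loci were looked up in the same RefSeq table. The mature let-7b lies at chr15:85707325-85707346 on the plus strand, outside the span of any protein-coding gene of the RefSeq table. Mature miR-126a-3p, the later name of miR-126-3p, lies at chr2:26591402-26591423 on the plus strand within the span of Egfl7, a gene expressed in endothelium. Mature miR-200c lies at chr6:124718324-124718346 on the minus strand, and miR-107 at chr19:34820700-34820722 on the minus strand within the span of Pank1. Mature miR-30a lies at chr1:23272274-23272295 on the plus strand, with no protein-coding gene over it. Whether a miRNA inside a gene span is exonic or intronic was not determined here.

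The array signal was concentrated in a small set of miRNAs. Of the 609 mouse probe sets, 92 were detected on all 4 arrays (15.1%), 153 on 1 to 3 arrays and 364 on none (59.8%). Among the plant probe sets, of which 5% lie above the limit of an array by construction, 12 of 1341 were above it on all 4 arrays (0.895%) and 1160 on none (86.5%). A further 169 plant probe sets were above it on 1 to 3 arrays, so detection on a single array, as for 87 mouse probe sets, cannot be told from background for any 1 of them. The limits were 4.27, 4.25, 4.29 and 4.29 on the log2 scale for WT replicates 1 to 4, and the background level was close to equal, with plant medians between 3.97 and 4.0. The arrays detected 159, 178, 146 and 143 mouse probe sets in the same order, or 156.5 ± 15.9 (SD, n = 4). WT replicate 4 stood somewhat apart from the others: its 3 correlations with them were lower than any among WT replicates 1 to 3 over the 92 probe sets detected on all arrays. The sources used here give no scan or labelling batch for the arrays, so none could be compared.

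**Figure D1:**
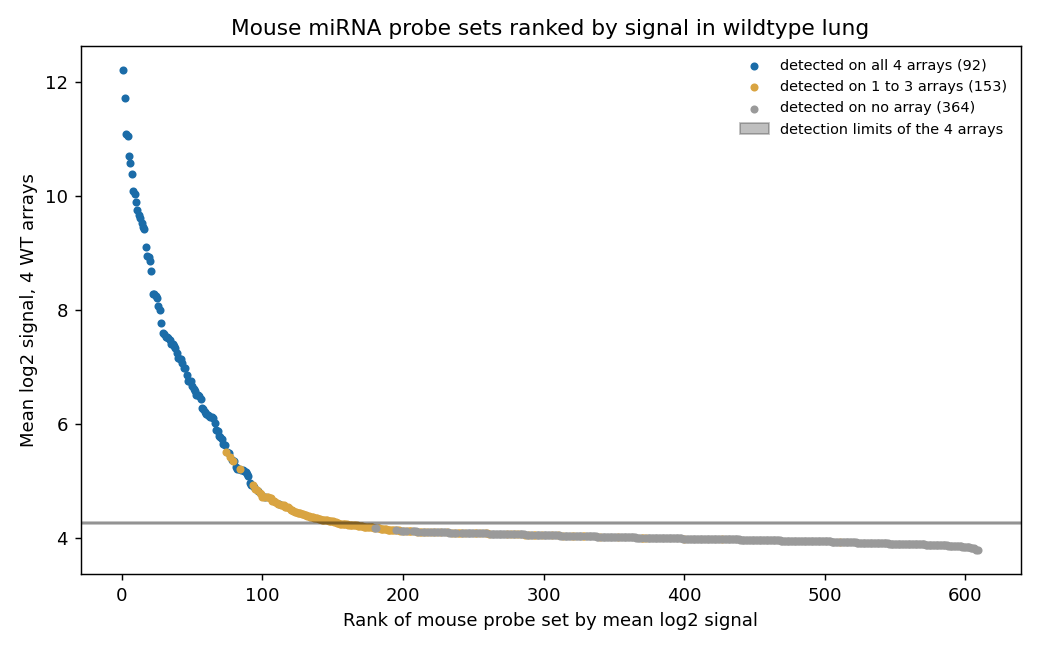
Mean log2 signal of each of the 609 mouse probe sets over the 4 WT arrays (y axis) against its rank (x axis), coloured by the number of arrays that detected it; the grey band spans the 4 detection limits. The signal falls from 12.20 at rank 1 to the background band, with the 92 probe sets detected on all 4 arrays at the left.

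The mean signals of the 92 ran from 12.20 down to 4.60 on the log2 scale. Only 9 of them had a mean of 10 or more, 27 had a mean of 8 or more, and 26 lay under 6. When the log2 values were turned back to linear signal, the 10 highest mouse probe sets of each array held 41.0%, 55.5%, 52.9% and 39.0% of the summed signal of all 609 for WT replicates 1 to 4. The highest 25 held 61.5%, 70.7%, 70.2% and 59.6%. These sums include the background of every probe set, and probe sets differ in how strongly they bind, so the order given here is one of signal and not of molecule number.

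**Figure D2:**
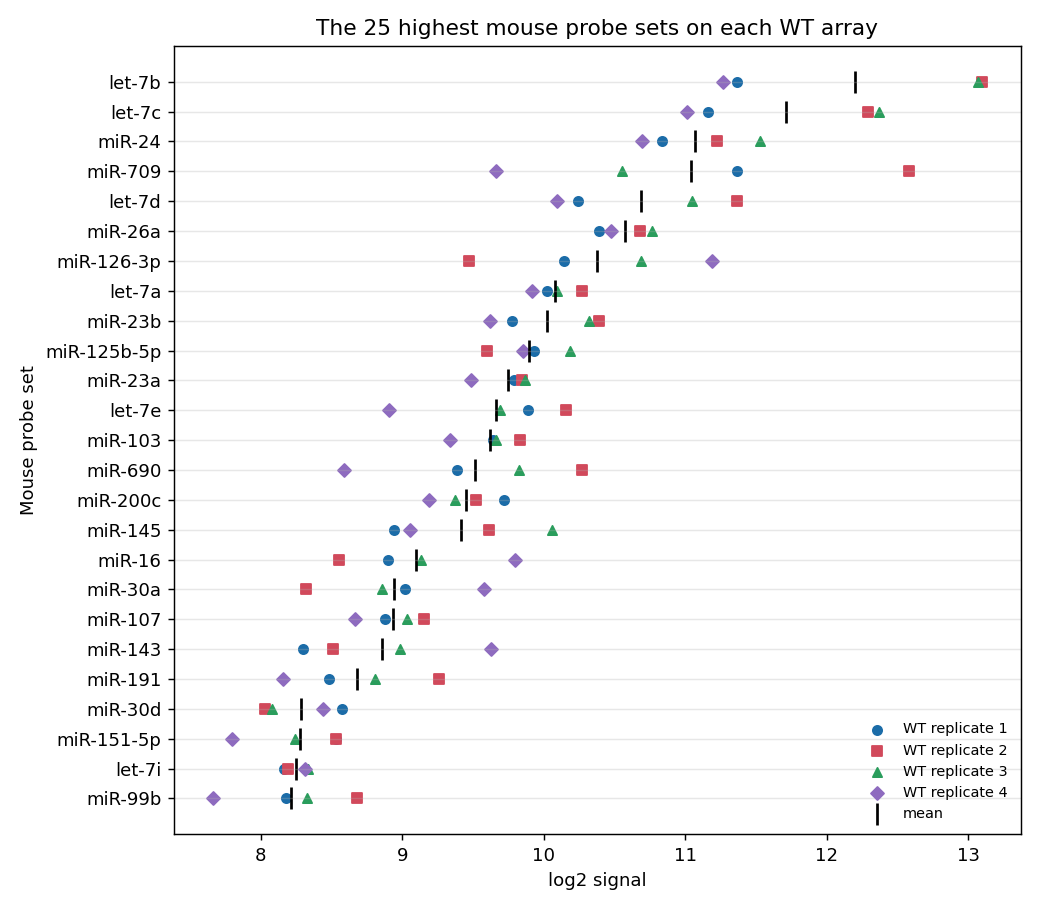
log2 signal (x axis) of the 25 mouse probe sets with the highest mean (y axis, highest at the top) on each of the 4 WT arrays, with the mean as a vertical bar. The let-7b values of WT replicates 2 and 3 lie near 13.1 and those of replicates 1 and 4 near 11.3, whereas the let-7a and let-7i values nearly coincide.

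The let-7 family, which restrains proliferation and rises as tissues differentiate, led the profile. Its 8 detected members share the seed GAGGUAG, and 5 of them stood among the 12 highest mouse probe sets. Summed, the let-7 probe sets held 22.2%, 34.0%, 35.6% and 20.2% of the linear mouse signal on WT replicates 1 to 4. The highest of all was let-7b, with log2 signals of 11.37, 13.10, 13.07 and 11.27. WT replicates 2 and 3 were thus high and replicates 1 and 4 low, with a gap of 1.83 between the extremes, 3.56-fold in linear signal. let-7c repeated this pattern at 11.16, 12.29, 12.37 and 11.02, and so did let-7d at 10.24, 11.37, 11.05 and 10.09. let-7a, in contrast, was nearly level at 10.03, 10.27, 10.09 and 9.92. Its mean of 10.08 ± 0.15 (SD, n = 4) placed it at rank 8.

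The mean signals of the let-7 members spanned 6.06 on the log2 scale, although few bases separate their sequences. Counting positions from 1 at the 5′ end, let-7c differs from let-7a by A19G alone and its signal was 1.63 higher. let-7b carries A17G and A19G and was 2.13 higher. let-7f differs by G12A alone, and at 7.15 ± 0.39 (SD, n = 4) it was 2.93 below let-7a. let-7g, with G12U and U18C, was the lowest detected member at 6.14 ± 0.37. The G+C content was 45.5% in let-7b, 36.4% in let-7a and let-7g and 31.8% in let-7f. Closely related probe sets can bind each other's targets, and cross-binding was not tested. The remaining member, miR-98, was above the limit on 1 array only, at 3.84, 4.34, 4.06 and 3.80. Its mean of 4.01 stands beside a median of 4.05 over all 609 mouse probe sets.

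Next to let-7 stood miRNAs encoded in the paired miR-23/27/24 clusters, which are expressed in vessels and many other tissues. All 5 major-strand probe sets of these clusters were detected on all arrays, beside 15.1% of all mouse probe sets. miR-24 had signals of 10.83, 11.23, 11.53 and 10.70 and ranked next after let-7c, miR-23b averaged 10.03 ± 0.39 (SD, n = 4) and miR-23a 9.75 ± 0.18. The miR-27 pair was lower, at 7.24 ± 0.48 for miR-27a and 6.98 ± 0.46 for miR-27b. WT replicate 4 was the highest array for both miR-27 probe sets and the lowest for miR-24 and both miR-23 probe sets. Of the star strands, miR-24-2-star was detected on all arrays and miR-24-1-star on 1, while miR-27a-star and miR-27b-star were detected on none.

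Several further high signals came from miRNAs of broad expression. miR-26a, which many tissues express, was steady at 10.39, 10.68, 10.76 and 10.48, and its relative miR-26b, at 4.58, 4.14, 4.20 and 4.24, was above the limit on WT replicate 1 only. miR-103 and miR-107, which share the seed GCAGCAU and lie within genes of pantothenate kinases, averaged 9.62 ± 0.20 and 8.93 ± 0.21 (SD, n = 4). miR-125b-5p averaged 9.89 ± 0.24, miR-16 9.09 ± 0.52, miR-30a 8.94 ± 0.52 and miR-191 8.68 ± 0.47. The last places among the 25 were taken by miR-30d, miR-151-5p, let-7i and miR-99b, with means between 8.21 and 8.28. Neighbours in this order often differed by less than their spread over the arrays, and 21 probe sets were among the top 25 of each of the 4 arrays.

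A pair of the 25 leading names, miR-709 and miR-690, come from a group of later mouse annotations. miR-709 stood at rank 4 with signals of 11.37, 12.58, 10.55 and 9.66, a range of 2.92, and it was level with let-7b at the top of the mouse probe sets on WT replicate 1, both at 11.37. miR-690 stood at rank 14 with 9.38, 10.27, 9.82 and 8.58. WT replicate 2 was the highest array and replicate 4 the lowest for both. miR-805 had signals of 7.98, 6.31, 6.53 and 8.77, high on WT replicates 1 and 4, and miR-1195 had 7.55, 7.57, 4.76 and 4.53, high on replicates 1 and 2. Neither miR-805 nor miR-1196, at 5.19 ± 0.68 (SD, n = 4), had a gene of its name in the RefSeq table used here.

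The markers of lung cell types were present in the profile for most compartments. Of 30 markers of lung and blood cells, 15 were detected on all arrays, 9 on some and 6 on none, beside the 15.1% detected on all arrays among mouse probe sets. Endothelium was represented by miR-126-3p, which acts in vascular integrity, with signals of 10.14, 9.48, 10.69 and 11.19 and rank 7. WT replicate 4 was the highest array and replicate 2 the lowest. The other strand of the same hairpin, miR-126-5p, was detected on no array and averaged 3.97 ± 0.17 (SD, n = 4).

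Both smooth muscle miRNAs were high. miR-145, which promotes the contractile state, had signals of 8.94, 9.61, 10.06 and 9.05, and its cluster partner miR-143 had 8.30, 8.51, 8.98 and 9.62. WT replicate 4 was thus the highest array for miR-143 and among the lower ones for miR-145. Of the 4 mesenchymal probe sets, miR-214 averaged 7.36 ± 0.55 (SD, n = 4), miR-199b 6.51 ± 0.59 and miR-199a-3p 6.48 ± 0.86, while miR-199a-5p was above the limit on 2 arrays. The mature sequences matched by name to miR-199b and miR-199a-3p are identical, as the following lines show. Whether these probe sets read the same RNA could not be checked without probe sequences.
miR-199a-3p: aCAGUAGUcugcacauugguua
miR-199b: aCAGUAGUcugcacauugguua
miR-199a-3p had signals of 5.59, 6.34, 6.35 and 7.66 and miR-199b 6.14, 6.11, 6.43 and 7.36. Both were highest on WT replicate 4, and they differed by at most 0.55 on any array, on WT replicate 1.

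Among the 8 epithelial markers 3 were detected on all arrays (37.5%), 4 on some and 1 on none. Of all mouse probe sets, 15.1% were detected on all arrays and 59.8% on none. miR-200c, which maintains the epithelial state by repressing Zeb transcription factors, was steady at 9.72, 9.52, 9.37 and 9.19. Its seed relative miR-200b averaged 5.64 ± 0.19 and miR-200a 5.25 ± 0.46 (SD, n = 4). Their cluster partners were near background, with miR-141 above the limit on 1 array and miR-429 on 2. miR-375 and miR-203 were each above it on 3 arrays. The basal cell miRNA miR-205 was detected on none, at 3.97 ± 0.10. Of 4 probe sets for ciliated cell miRNAs, miR-34c was detected on all arrays at 5.99, 6.83, 6.97 and 7.22, miR-34b-5p on 1, and miR-449a and miR-449b on none. The other strand of the miR-34b hairpin, miR-34b-3p, which was added after its values were seen, had 4.19, 5.58, 5.49 and 4.14 and was detected on WT replicates 2 and 3. miR-34a, a p53 target in the same family, averaged 4.89 ± 0.42 (SD, n = 4).

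Blood cell miRNAs were present in part. Of the 7 leukocyte markers, miR-342-3p averaged 6.86 ± 0.33, miR-150, which is abundant in mature lymphocytes, 6.44 ± 0.18, and miR-146a, which dampens innate immune signalling, 6.12 ± 0.37 (SD, n = 4). The myeloid miR-223 was above the limit on 2 arrays, at 4.07, 4.42, 4.16 and 4.64, as was miR-155, and the probe sets of miR-142-3p and miR-142-5p, known from all blood cells, were detected on none. Of the erythroid markers, miR-486 had signals of 7.50, 8.13, 8.27 and 6.13 and miR-451 averaged 4.72 ± 0.37. miR-144, encoded beside miR-451, was above the limit on 1 array. miR-21, often reported among the abundant lung miRNAs, was likewise near background, at 4.73, 4.24, 4.16 and 4.42, above the limit on WT replicates 1 and 4. An undetected probe set shows only that its signal did not exceed that of plant probe sets, not that the miRNA was missing.

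**Figure D3:**
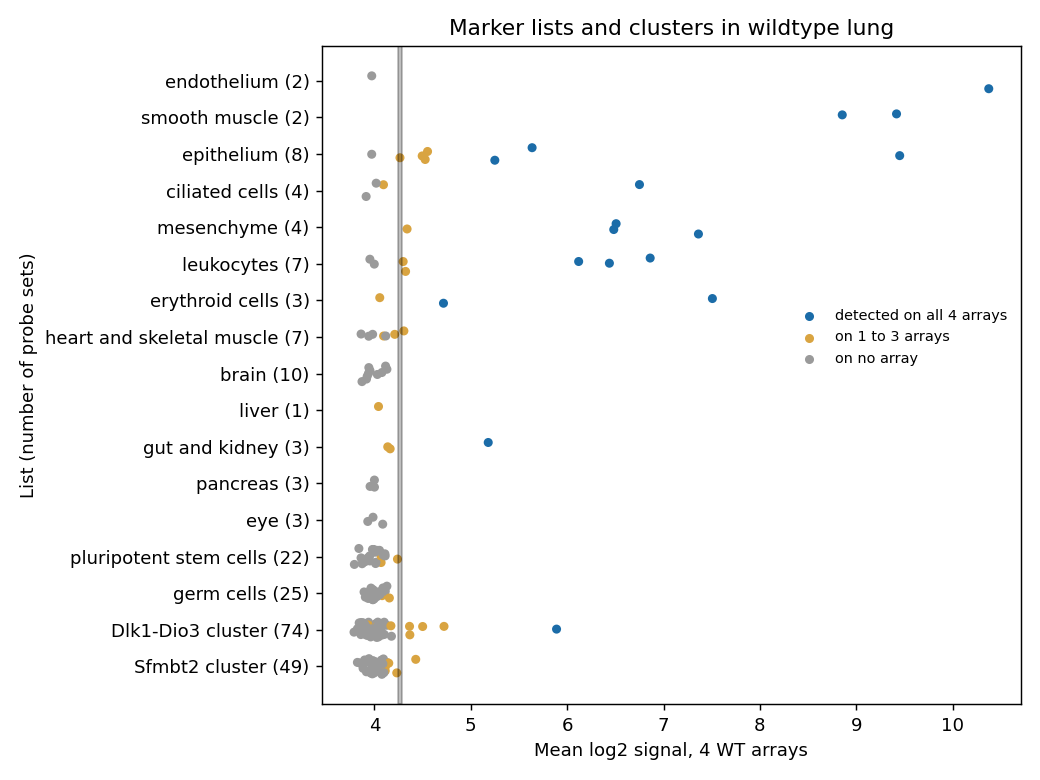
Mean log2 signal over the 4 WT arrays (x axis) of every probe set in each list of markers or cluster members (y axis, list size in brackets, points shifted vertically for sight), coloured by the number of arrays that detected it; the grey band spans the detection limits. The points right of the band belong mainly to the lists of lung and blood cells.

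Markers of other organs and stages were mostly undetected. Of 74 such probe sets, 1 was detected on all arrays (1.35%, beside 15.1% of all mouse probe sets), 11 on some and 62 on none (83.8%, beside 59.8%). The 10 brain miRNAs, miR-124 and miR-9 among them, were detected on no array, with means between 3.87 and 4.13. The same held for the 3 pancreatic and the 3 eye miRNAs. Of the 7 miRNAs of heart and skeletal muscle, miR-133b was above the limit on 2 arrays, miR-1 and miR-133a on 1 and the other 4 on none. The liver miRNA miR-122 was above it on WT replicate 2 only. Of 22 probe sets of pluripotent stem cell miRNAs 19 were detected on none, and of 25 from germ cell clusters 23. The single exception was miR-194, known from gut and kidney epithelium, at 4.87, 4.66, 5.04 and 6.15. Its partners miR-192 and miR-215 were above the limit on WT replicate 4 only, the array on which miR-194 was also highest.

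The large Dlk1-Dio3 and Sfmbt2 clusters were also mostly undetected. The imprinted Dlk1-Dio3 cluster, expressed from the maternal chromosome, had 74 probe sets, of which 1 was detected on all arrays, 8 on some and 65 on none. The shares were 1.35% on all arrays and 87.8% on none, beside 15.1% and 59.8% of all mouse probe sets. The exception, miR-494, had signals of 5.25, 5.36, 6.04 and 6.92. The median over the cluster was 3.97, beside 4.05 over all mouse probe sets. Of 49 probe sets named miR-297, miR-466, miR-467 or miR-669, whose genes are repeated within Sfmbt2, none was detected on all arrays and 40 on no array (81.6%). In the Dlk1-Dio3 cluster the count on all arrays used was 2 with the 90th plant percentile or without WT replicate 2 or 3. In the Sfmbt2 cluster it was 1 without WT replicate 1.

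The remaining families showed 1 or a few high members each. In the miR-30 family, which is abundant in lung epithelium, miR-30a, miR-30d, miR-30c and miR-30b were detected on all arrays with means from 8.94 to 6.29, and miR-30e on 3 arrays at 4.38, 4.16, 4.83 and 5.49. Another mammal's probe set, named miR-30e-5p, was detected on all 4 arrays with a mean of 6.22. Whether it reads the same RNA as the mouse miR-30e probe set could not be checked without probe sequences. In the miR-29 family, which represses collagen genes, miR-29a had signals of 7.23, 6.86, 7.80 and 8.21, whereas miR-29b and miR-29c were each above the limit on 1 array. The miR-15/16 family held miR-16, miR-195 at 7.58 ± 0.20, miR-15b at 5.74 ± 0.60 and miR-15a at 4.82 ± 0.15 (SD, n = 4). miR-497, transcribed with miR-195, had 3.94, 6.01, 5.90 and 6.18, with only WT replicate 1 at background.

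The proliferation-linked miR-17 family and clusters had 8 of 14 probe sets detected on all arrays (57.1%, beside 15.1% of all mouse probe sets), and 5 with the 99th plant percentile as the limit. miR-93 was the most reproducible of the 92, at 7.37, 7.32, 7.30 and 7.32, and miR-106b from the same precursor in Mcm7 was the next, at 5.88 ± 0.07 (SD, n = 4). miR-25 of that precursor spread more, at 6.35, 4.35, 5.69 and 5.60, but the medians of 12 other mammals' miR-25 probe sets on the same arrays were nearly level at 5.53, 5.44, 5.68 and 5.29. From the miR-17-92 cluster miR-92a averaged 6.76 ± 0.29, miR-17 6.50 ± 0.58, miR-20a 6.13 ± 0.24 and miR-19b 4.96 ± 0.56, and miR-19a was detected on no array. The seed relative miR-92b averaged 5.35 ± 0.67. Of the related miR-10, miR-100 (with miR-99) and miR-125 families, 7 of 8 probe sets were detected on all arrays. Here miR-99a averaged 7.41 ± 0.51, miR-351 6.67 ± 0.65, miR-10a 6.02 ± 0.50 and miR-100 5.65 ± 0.52, while miR-10b was detected on none. miR-181a had signals of 8.02, 8.89, 7.97 and 7.38, and miR-181b 7.21, 7.46, 6.62 and 5.01, both lowest on WT replicate 4. The shared seeds of the 75 sequenced miRNAs numbered 13 and covered 39 of them.

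Few star strands were detected on all arrays. Of 118 star probe sets, 4 were detected on all arrays (3.39%, beside 15.1% of all mouse probe sets). The 76 detected on none (64.4%) were close to the general share of 59.8%. The highest, miR-140-star, averaged 7.48 ± 0.23 (SD, n = 4), while the probe set of the strand named miR-140 was detected on no array, at 4.02 ± 0.14. RefSeq lists the strand matched to miR-140-star as miR-140-3p, at chr8:107551288-107551308 on the plus strand within the span of Wwp2, and its sequence follows because it reversed the usual order of the strands.
miR-140-star: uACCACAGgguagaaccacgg
The other 3 were lower than their major strands: miR-24-2-star at 6.16 ± 0.62, miR-30a-star at 5.20 ± 0.53 and miR-17-star at 5.16 ± 0.66. miR-34c-star, which ranked between miR-24-2-star and miR-30a-star, had signals of 5.48, 6.36, 5.72 and 4.10 and was missed on WT replicate 4 only. miR-193-star, miR-30c-2-star, miR-322-star and miR-483-star were detected on 3 arrays and miR-106b-star on 2, with means of 4.57 to 4.93. Among them, miR-193-star, miR-322-star and miR-483-star also averaged above their named major strands, by 0.87, 0.44 and 0.55. The means of those major strands were 4.06, 4.20 and 4.03.

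The limit separated probe sets of nearly equal signal. By their lowest margin over the 4 arrays, the probe sets just inside it were miR-423-3p, miR-1192, miR-378, miR-25 and miR-425, which exceeded the limit of their weakest array by 0.0032 to 0.126. Just outside were miR-181c, miR-411, miR-706, miR-532-5p and miR-187, whose lowest margins were -0.0011 to -0.027, each on 1 array. Of the 39 probe sets detected on 3 arrays, WT replicate 4 missed 16, replicate 3 missed 13, replicate 1 missed 8 and replicate 2 missed 2.

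The WT arrays were alike over the detected miRNAs, with WT replicate 4 the least like the others. Over the 92 probe sets, Pearson's r was 0.938, 0.941 and 0.948 for the 3 pairs among WT replicates 1, 2 and 3. It was 0.862, 0.815 and 0.909 for replicate 4 with replicates 1, 2 and 3. Spearman's rho was lowest for replicates 2 and 4 at 0.760 and highest for 2 and 3 at 0.926. The median absolute difference between arrays was 0.39 to 0.42 within the first 3 and 0.79 between replicates 2 and 4, and 50 of 92 probe sets lay within 1 log2 unit in that pair. These correlations describe probe sets that share arrays and are not independent replicates. Among the 364 probe sets detected on no array, Spearman's rho between arrays was only 0.089 to 0.184.

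**Figure D4:**
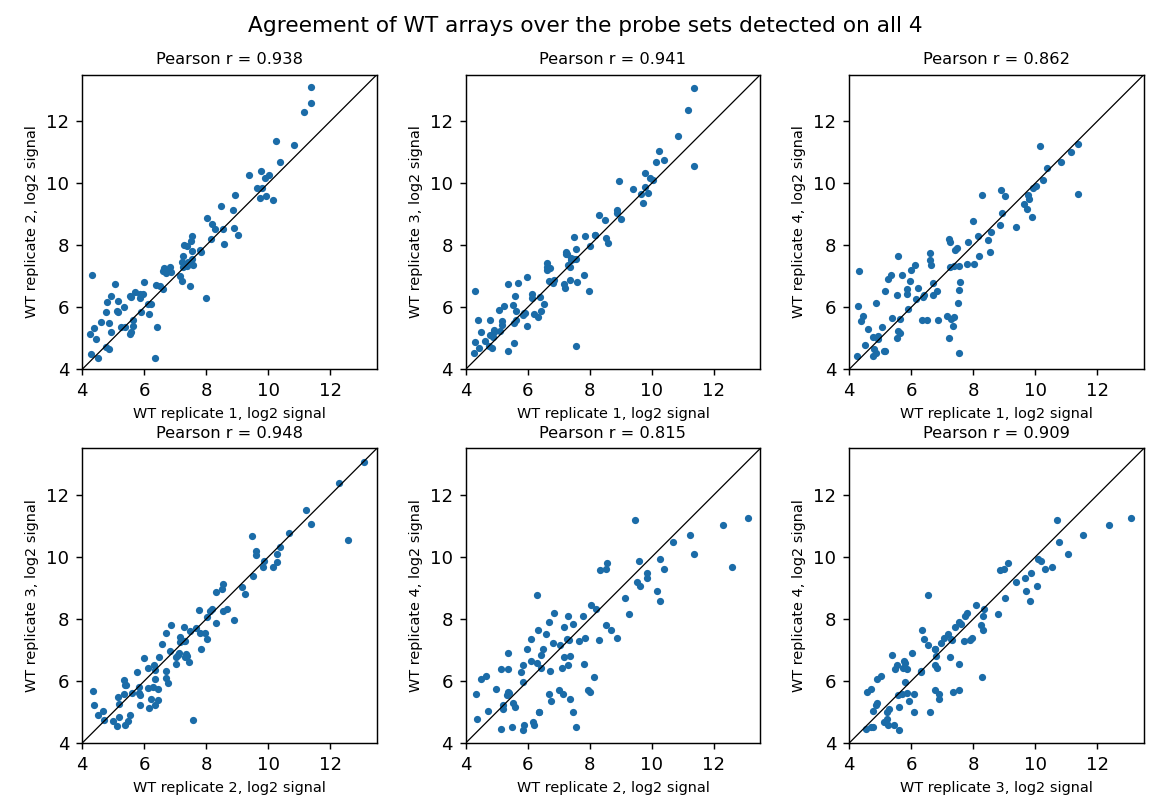
log2 signal of the 92 probe sets detected on all 4 WT arrays, plotted for each of the 6 pairs of arrays (x and y axes) with the line of equality. Points scatter most for WT replicates 2 and 4 (r = 0.815) and least for replicates 2 and 3 (r = 0.948).

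The SD over the arrays had a median of 0.50 among the 92, with 46 probe sets at 0.5 or less and 7 above 1. WT replicate 4 had the lowest value of the 4 arrays for 37 of the 92 and the highest for 30, and WT replicate 2 had the highest for 35. The largest SDs belonged to miR-1195 at 1.69, miR-378 at 1.33, miR-709 at 1.24, miR-805 at 1.18, miR-181b at 1.10, let-7b at 1.02 and miR-320 at 1.01. miR-674, miR-486 and miR-125a-5p followed at 0.99, 0.98 and 0.92. In 5 of these, miR-181b, miR-320, miR-674, miR-486 and miR-125a-5p, WT replicate 4 was the lowest array by over 1 log2 unit, as with miR-320 at 7.29, 8.02, 7.35 and 5.64. The smallest SDs were those of miR-93, miR-106b, let-7i, let-7a and miR-15a, between 0.028 and 0.15. Without WT replicates 1 and 4, whose highest signals were 11.37 and 11.27, the mean of let-7b rose from 12.20 to 13.09, and 24 of the 25 leading probe sets were the same.

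Probe sets that carry the same miRNA name with another mammal's prefix allowed each array to be read again. For 82 of the 92 names there were 587 such probe sets, and 516 of these were detected on all 4 arrays. Only names whose mouse probe set was detected on all arrays were read in this way. The share over all other mammals' probe sets was not computed, so the 516 cannot be set against it. The mouse mean lay within 1 log2 unit of their median for 78 names, with a median absolute difference of 0.11. For let-7b the medians of 5 other mammals' probe sets were 11.40, 13.18, 13.06 and 11.28, with the same arrays high and low, and these probe sets differed among themselves by an SD of 0.074. For miR-143 the medians of 10 probe sets were 8.31, 8.40, 9.09 and 9.36, again highest on WT replicate 4. For miR-378, in contrast, the medians of 4 probe sets were 6.33, 6.64, 6.69 and 7.10, against 4.31, 7.04, 6.54 and 7.17 for the mouse probe set. WT replicate 1 was the lowest array in both readings, but far lower with the mouse probe set than with the others. Of the 52 names with at least 5 other probe sets, 41 had the same highest array and 33 the same lowest array as the mouse probe set. These probe sets were read on the same 4 hybridisations and add no animals. For miR-199b, miR-151-3p, miR-455 and miR-17-star the mouse value lay over 1 log2 unit away from their median, and without probe sequences it is not known whether those probe sets match the mouse RNA.

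The differences between arrays were also set against base composition and against level. Over the 75 miRNAs with a sequence (81.5% of the 92), whose G+C content ran from 27.3% to 75.0%, the deviation of an array from the mean of the 4 correlated with G+C content at Pearson's r = 0.26 and 0.33 for WT replicates 1 and 2, -0.04 for replicate 3 and -0.38 for replicate 4. Of the 11 miRNAs with 55% G+C or more, WT replicate 2 was above the mean of the arrays for 10 and WT replicate 4 below it for 10. Their median deviation was 0.44 on replicate 2 and -0.44 on replicate 4. On WT replicate 1, 4 of the 11 were above the mean, and the median deviation was -0.07. miR-214, with 59.1% G+C, had signals of 7.55, 7.80, 7.54 and 6.55, and miR-351, with 62.5%, had 7.16, 7.03, 6.77 and 5.72. Of the 26 miRNAs under 45%, 17 were above the mean on replicate 4, where their median deviation was 0.12. The points share arrays, and each array's deviations are set against a mean that includes it. The same deviations correlated with the mean level of the miRNA at r = -0.07, 0.09, 0.42 and -0.23 for WT replicates 1 to 4, so on replicate 3 the relation with level was larger than any with G+C content. Mean level and G+C content correlated at r = -0.10. 1 miRNA stood apart, miR-1195 with 60.9% G+C. Without it, a choice made after seeing the data, r was -0.35 for replicate 4 and 0.28 for replicate 2. For replicate 1, where miR-1195 deviated by 1.45, r without it was not computed. What underlies these relations was not tested.

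**Figure D5:**
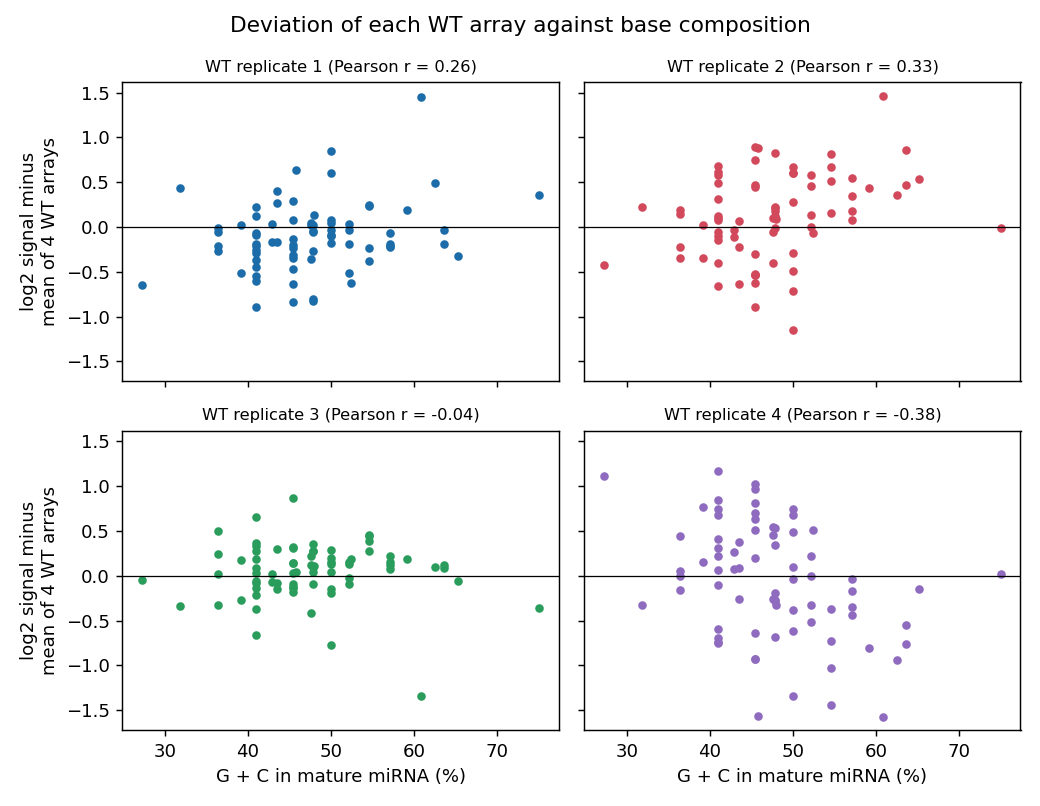
Deviation of the log2 signal on each WT array from the mean of the 4 arrays (y axis) against the G+C content of the mature miRNA in percent (x axis), for 75 miRNAs detected on all 4 arrays, 1 panel per array. The points rise with G+C content on WT replicate 2 (r = 0.33) and fall on WT replicate 4 (r = -0.38).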

How the data were processed

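Each array has 1 number for each probe set. The authors' deposited numbers are treated as log2 values, since they run from 3.37 to 13.36, above the 11.1 that the natural logarithm of a 16-bit range allows; the base is inferred, and folds rest on it. Per the labels' protocols total RNA came from TRIzol extraction and carried a biotin label for Affymetrix hybridisation. How background was corrected, probes combined and arrays normalized is not given in the sources used here.

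Mouse probe sets were those beginning mmu-, plant ones those of 9 species prefixes. Means and SDs over the 4 WT arrays, ranks, detection and correlations were computed with Python 3.11.15, pandas 2.3.3 and numpy 2.4.6, and the calculation of detection and ranks was tested on simulated data. With 1 group no test between groups was made, and no p-value is given. The number of arrays limits the precision. All table columns belonged to a sample (0 left over). Names without an arm were matched to RefSeq (GRCm38.p6) by their known major strand. miRNAs named are the 25 highest by mean, members of 27 lists detected on all arrays with some others, the 10 highest star strands, the 5 nearest the limit on each side, and the 10 largest and 5 smallest SDs; miR-21, miR-1196 and some others outside this rule were added after their values were seen. The members and lists were chosen with earlier results of these data known. Alternatives were other plant percentiles (90th, 99th), a pooled limit, quantile normalization, centring, the median, averaging of same-name probe sets, and leaving out arrays.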

Additional observations from a re-analysis of the deposited data

Results flagged for a closer look

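Of 91 sets of 4 values tested for 1 array far from the others, 2 were picked out, where chance gives about 1 in 20. miR-150 was highest on WT replicate 2 at 6.71, with the other arrays between 6.32 and 6.39. miR-15a was highest on WT replicate 4 at 5.04, with the others between 4.72 and 4.76.

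Probe sets for the miRNAs of other mammals also carried signal on all 4 WT arrays. There were 36 miRNA names with no mouse probe set of that spelling that were detected on all arrays through another mammal's probe set. A name was included if any of its probe sets was detected on all arrays. How many such names the array holds was not counted, so no share is given. The highest mean log2 signals were 10.35 for miR-126, 9.93 for miR-125b, 9.46 for miR-30a-5p, 9.14 for miR-1826, 8.32 for miR-151, 8.21 for miR-151-star, 7.79 for miR-92, 7.78 for miR-486-5p, 7.65 for miR-222a and 7.53 for miR-923. Each value is that of the highest probe set of its name, and for miR-151-star the 2 detected probe sets averaged 8.21 and 5.80. Several of these names are other spellings of names that the mouse set holds, such as miR-126 beside miR-126-3p. Of 922 small nucleolar RNA probe sets, 3 were detected on all 4 arrays (0.325%). This share was below the 0.895% of plant probe sets, so as a count it does not exceed background. How far the signals of these 3 lay above the limits is not reported here.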

How the results depend on the processing

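The count of 92 probe sets detected on all arrays was 72 with the 99th and 103 with the 90th plant percentile. It was 91 with a pooled limit, 100 with same-name probe sets averaged (88 of the 92 among them) and 94 to 108 without 1 array. Where arrays were left out, detection was required on the remaining arrays only, which can raise a count but not lower it. Between 24 and 25 of the 25 leading probe sets were shared under every alternative that could change their order. The lowest Pearson correlation between arrays moved from 0.815 to between 0.837 and 0.937 without 1 array, the highest being without WT replicate 4, and to 0.954 without WT replicates 1 and 4, where 1 pair is left. These values were taken over fewer pairs and over the longer list of probe sets detected on the remaining arrays. Without WT replicate 1 or 3 the pair of replicates 2 and 4 remains, and the lowest correlation was 0.837 or 0.851. A rise therefore does not by itself measure the array left out. For the 87 named miRNAs, 12 of 261 means recomputed under quantile normalization, centring or averaging of same-name probe sets moved by more than their SD, all under averaging. Centring cannot change a mean over the 4 arrays at all. Leaving out arrays or taking the median cannot move a mean of so few arrays by that much. The measure therefore says nothing of centring, of leaving out arrays or of the median. Without WT replicates 1 and 4 the 87 means changed by a median of 0.24 and by at most 0.98, for miR-805. Of 297 list counts 13 changed by over 1.5 times, among them 5 and not 3 epithelial markers on averaging or without WT replicates 1 and 4. The 297 include counts under centring and quantile normalization. Both keep the order of probe sets within an array, so those counts could not change. With the 99th percentile the counts fell to 5 from 8 in the miR-17 list, to 2 from 4 in the miR-15/16 family, and to 1 from 2 each for the erythroid list and the miR-34 and miR-181 families. The last was 4 without WT replicates 1 and 4. The relation with G+C content, where alternatives were chosen after seeing the data, kept its sign in all 8 recomputed values. No paired analysis was possible because the values come from 1 group and no test. Signals near the plant limit cannot be told from background.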

Other observations

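The deposited table holds exact repeats of single values within an array. On the 4 WT arrays 1188, 1121, 1322 and 1158 of 7625 probe sets shared their value to the last digit with another, mostly near the background level, and 186 probe sets of WT replicate 3 held the same value of 3.97. Few of the detections rested on such values: 14, 3, 11 and 2 of the detected mouse probe sets of WT replicates 1 to 4 carried a repeated value. On WT replicate 1, 9 probe sets, 4 of them for mouse miRNAs, held the same value to its last digit, 4.38, just above the limit of 4.27, among them miR-30e, miR-106a and miR-144. For miR-144 this was the only array above the limit.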
